A study of Sus scrofa with 15 samples.

Results

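The interleukins and their receptors were followed in pig kidneys that had gone through warm ischemia, with or without remote ischemic preconditioning (IPC). Members were all genes whose pig symbol is IL followed by a digit, apart from IL1A, IL1B, IL1RN, IL6, IL8, IL10 and IL18. Probes could be matched to 35 genes with such a symbol, of which 5 were on that list of exceptions. The 30 that remained, 16 ligands and 14 receptor chains, were set beside the 3020 genes that could be named on the array. A gene was named where the RefSeq transcript of its probe had a pig symbol, and each gene was represented by the probe with the highest mean signal. Probes that could not be matched in this way were not analysed here, and receptors such as IL10RA, IL1R1 and IL2RB are therefore not among the members.

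The study used 15 female Yorkshire pigs, 5 per group, with 1 array of kidney tissue per pig. All 3 groups, controls included, lost the left kidney and had the right kidney exposed to warm ischemia, which the labels give as 90 min for the control and early groups. The controls had no preconditioning. The early window group (rIPCe) had preconditioning of the hind limb, by clamping of the right external iliac artery, immediately before renal ischemia. The late window group (rIPCl) had the same preconditioning and underwent renal ischemia 24 h later. Tissue was taken 72 h after ischemia. No kidney without ischemia was part of the comparison, so differences between groups are differences among injured kidneys.

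Interleukins are secreted signals by which immune cells, and to a lesser degree epithelial and stromal cells, act on each other. Most bind receptors built from a chain particular to the ligand and a chain shared with other ligands, such as the common gamma chain IL2RG or the IL6 family chain IL6ST, and most signal through Janus kinases and STAT transcription factors. In the kidney after ischemia, cytokine signalling of this kind accompanies the entry of leukocytes and the repair of the tubular epithelium.

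Values are log2 signals of Agilent 1-colour arrays after quantile normalization, and a probe was called detected on an array where the scanner software flagged it as well above background. The share of spots well above background was 62.2 to 69.5% on the control arrays, 67.4 to 73.9% on the rIPCe arrays and 71.8 to 74.2% on the rIPCl arrays. It therefore moved with the group. Each array belonged to 1 of 4 slides, and slide and group largely coincided. The first slide held control arrays 1 to 4, the second control array 5 with rIPCe arrays 1 to 3, the third rIPCe arrays 4 and 5 with rIPCl array 1, and the fourth rIPCl arrays 2 to 5. No slide held both control and rIPCl arrays. Of the 46 marker genes of kidney and blood cell types that were measured, 38 were detected on all 15 arrays, and these included all 8 measured proximal tubule markers. A listed gene is called measured where a probe could be matched to its symbol. Markers of the labelled tissue were thus present.

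Interleukin genes were detected less fully than named genes as a whole. Of the 30 members, 10 were detected on all 15 arrays, 12 on some arrays and 8 on none. Over the 3020 named genes, 79.0% were detected on all arrays and 6.06% on none. Among the 16 ligands, 5 were detected on all arrays and 6 on none, whereas among the 14 receptor chains 5 were detected on all arrays and 2 on none. The 5 ligands were IL15, IL16, IL1B2, IL29 and IL5. IL15 sustains T and NK cells, IL16 is a chemoattractant for CD4+ cells, IL29 is an interferon of the lambda class, and IL5 acts on eosinophils. IL1B2 is a near-identical pig copy of IL1B, and its probes may also have bound IL1B transcripts. The 5 receptor chains were IL6ST, the signalling chain of the IL6 family, IL6R, IL10RB, which is shared by the IL10 family, and IL4R and IL13RA1, which together form a receptor for IL4 and IL13. The 8 members found on no array were the T helper cell cytokines IL4, IL9, IL13, IL17A and IL21, the IL23 subunit IL23A, and the chains IL12RB2 and IL23R. A signal that was not well above background sets only an upper bound on the level, and does not show that a transcript was absent.

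**Figure D1:**
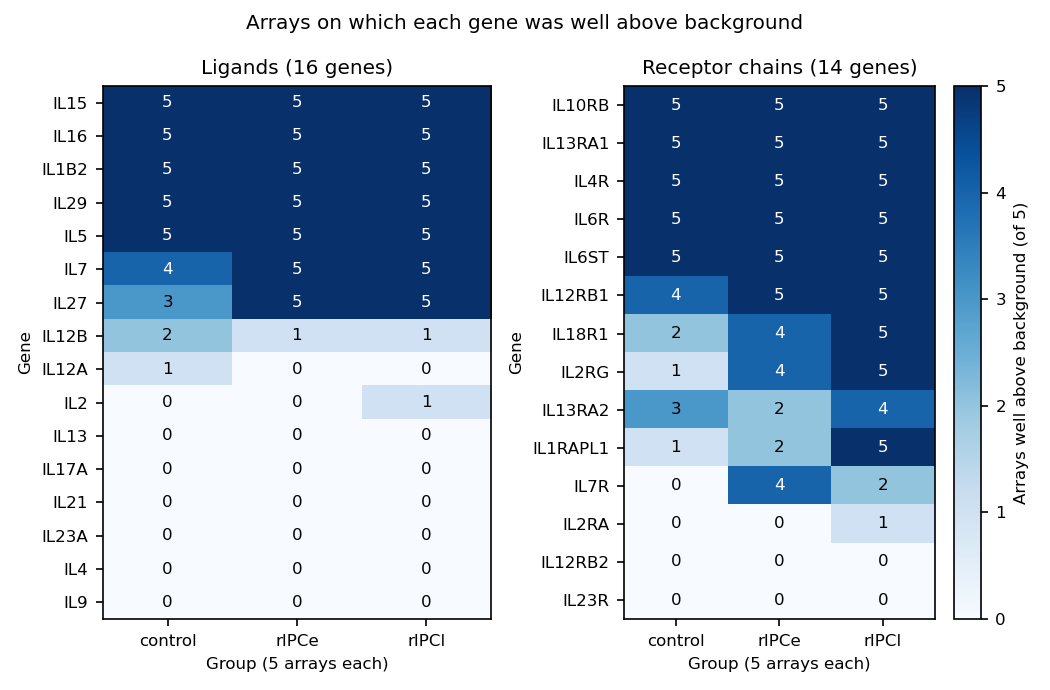
Number of arrays, of 5 in each group, on which each of the 16 ligands (left) and 14 receptor chains (right) was well above background. Genes at 5 in every group stand at the top and those at 0 in every group at the bottom; IL2RG, for example, goes from 1 control array to 4 rIPCe and 5 rIPCl arrays.

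Control arrays detected 6 to 8 of the receptor chains, rIPCe arrays 7 to 11, and rIPCl arrays 9 to 12. Of the ligands the same groups detected 5 to 9, 7 to 8 and 7 to 9. The control and rIPCl ranges did not overlap for receptor chains, and neither did those of the share of all spots well above background. The flag did not always follow the signal. IL1RAPL1, an accessory protein of the IL1 receptor family best known from neurons, was detected on 1 control, 2 rIPCe and 5 rIPCl arrays, while its mean log2 signal was 3.64 ± 0.47 (SD, n = 5) in the control group and 3.64 ± 0.34 in rIPCl. The lowest log2 signal that was well above background lay between 3.74 and 4.71 on control arrays, between 3.19 and 4.09 on rIPCe arrays and between 3.18 and 3.50 on rIPCl arrays. The part of this difference in the counts of detected receptor chains was not tested.

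**Figure D2:**
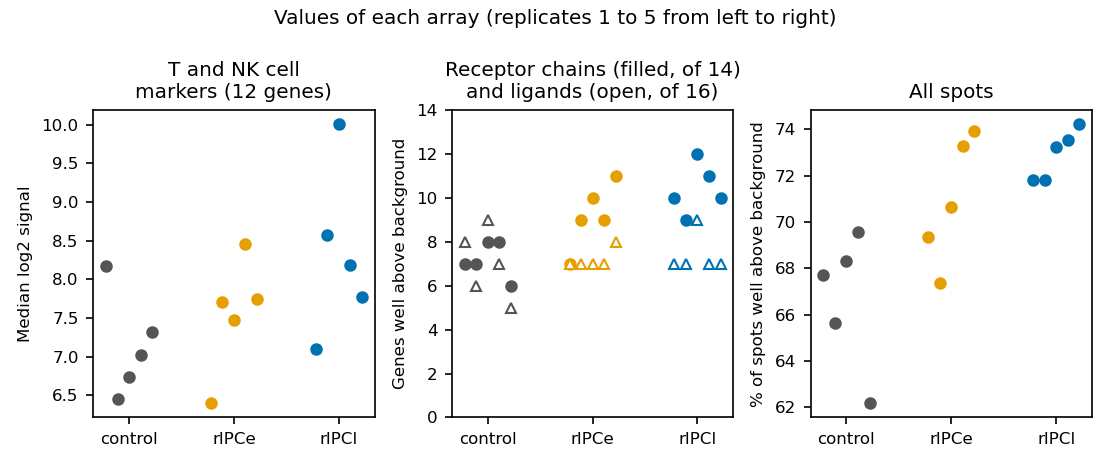
Values of each array in the 3 groups. Left, median log2 signal of 12 T and NK cell markers; middle, number of detected receptor chains (filled circles) and ligands (open triangles); right, percent of all spots well above background, where the rIPCl arrays sit at 71.8 to 74.2% and the control arrays at 62.2 to 69.5%.

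The late window was compared with the control group first. Of the 30 members, 1 passed the adjusted threshold, IL2RG, which rose in rIPCl (limma, Benjamini-Hochberg adjusted p under 0.05). Over all probes 6.27% passed, and over the named genes 9.5%, so the share among the members was not above the background. Under less strict criteria, a fold change of at least 2 with a p under 0.05 that was taken here without adjustment, 7 members were higher in rIPCl and 0 were lower. Of all probes 5.83% met these criteria, 3.67% in the higher direction. Of named genes 9.7% met them, 6.89% in the higher direction. The 7 members were the receptor chains IL2RG, IL12RB1, IL18R1, IL7R and IL2RA and the ligands IL16 and IL27. At an unadjusted p under 0.05 alone, 7 members were higher and 3 were lower, whereas 17.8% of the named genes were higher and 17.3% lower.

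IL2RG encodes the common gamma chain, which the receptors of IL2, IL4, IL7, IL9, IL15 and IL21 share. Its log2 signal was 5.14, 3.34, 3.54, 3.17 and 3.71 on control arrays 1 to 5. On the rIPCe arrays it was 3.55, 4.47, 3.94, 4.85 and 4.18, and on the rIPCl arrays 4.33, 5.76, 6.68, 5.40 and 5.36. Of the 5 rIPCl arrays 4 lay above every control array, and rIPCl array 1 lay below control array 1, which stood apart from the other controls. The gene was detected on 1 control, 4 rIPCe and 5 rIPCl arrays, so 4 of the 5 control values are signals not well above background and the fold is that of the measured signals. It rose by 1.72 on the log2 scale (SE 0.43), 3.30-fold, with a limma adjusted p of 0.0370 and an exact two-sided permutation p of 0.0159 (n = 5 per group). The smallest p that 5 against 5 arrays allow is 0.00794. The other IL2RG probe gave 1.82 (limma adjusted p = 0.0382).

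The call on IL2RG rested on the settings and on several arrays. It was lost with slide as a fixed block, where the difference was 0.09 (limma adjusted p = 0.997) and came only through slides that held rIPCe arrays, and with slide as a random block (1.49, adjusted p = 0.272). It was also lost when control array 2, 3 or 4 or rIPCl array 2, 3, 4 or 5 was left out, with limma adjusted p between 0.0697 and 0.0897. The difference stayed between 1.43 and 2.06 in the fits that left out a control or rIPCl array. Leaving out an rIPCe array cannot change it (1.72).

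Of the other chains in this receptor group, IL7R and IL2RA had a higher mean in rIPCl and IL4R, described further on, a lower one, and none of them passed the adjusted threshold. IL7R, the alpha chain of the IL7 receptor and a marker of naive and memory T cells, had log2 signals of 3.94, 3.07, 2.82, 2.47 and 2.76 on the control arrays, 2.24, 4.43, 4.42, 4.92 and 3.81 on the rIPCe arrays and 3.38, 3.39, 6.45, 5.35 and 3.36 on the rIPCl arrays. It was detected on 0 control, 4 rIPCe and 2 rIPCl arrays, and only rIPCl arrays 3 and 4 lay above all controls. Since it was well above background on no control array and on 2 rIPCl arrays, no fold is given (limma adjusted p = 0.183), and with slide as a fixed block the sign of its difference turned (-0.053). IL2RA, the high-affinity IL2 receptor chain carried by activated and regulatory T cells, had log2 signals of 1.41, 1.40, 3.63, 1.41 and 1.45 on the control arrays, 2.20, 2.58, 2.34, 2.44 and 1.40 on the rIPCe arrays and 2.06, 3.04, 3.94, 3.00 and 2.62 on the rIPCl arrays. Only rIPCl array 3 was well above background, so no fold is given (limma adjusted p = 0.141).

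IL12RB1 and IL18R1 are receptor chains by which T and NK cells respond to IL12 and IL18. IL12RB1 had log2 signals of 6.28, 4.77, 5.24, 5.12 and 4.84 on the control arrays, 5.02, 5.44, 5.68, 6.26 and 6.01 on the rIPCe arrays and 5.35, 6.70, 7.58, 6.27 and 6.11 on the rIPCl arrays. The groups overlapped, with rIPCl arrays 2 and 3 above all controls, and the difference was 1.15 (SE 0.39, limma adjusted p = 0.0814). IL18R1 had log2 signals of 3.94, 4.37, 3.80, 4.43 and 5.29 on the control arrays, 5.71, 6.42, 5.06, 3.21 and 4.18 on the rIPCe arrays and 4.93, 6.32, 5.55, 5.85 and 6.07 on the rIPCl arrays. It was detected on 2 control, 4 rIPCe and 5 rIPCl arrays. Of the rIPCl arrays 4 lay above all controls, and the difference in measured signal was 1.38 (SE 0.51, limma adjusted p = 0.106). The other IL18R1 probe was well above background on no array. With slide as a fixed block the difference was 1.68 for IL18R1, whereas for IL12RB1 it turned to -0.24.

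Among the ligands, IL16 came nearest to the adjusted threshold. Its log2 signal was 10.30, 9.14, 8.92, 8.85 and 9.41 on the control arrays, 9.37, 10.49, 10.35, 10.60 and 9.97 on the rIPCe arrays, and 9.72, 10.59, 12.55, 10.95 and 10.48 on the rIPCl arrays. All rIPCl arrays except array 1 lay above all controls. The difference was 1.54 (SE 0.44), 2.90-fold, with a limma adjusted p of 0.0535, just outside the threshold. IL27, a subunit of a cytokine that antigen-presenting cells make, had log2 signals of 5.60, 4.68, 4.66, 5.03 and 4.42 on the control arrays, 4.34, 5.17, 4.70, 4.91 and 4.99 on the rIPCe arrays and 4.91, 6.06, 6.89, 5.80 and 6.08 on the rIPCl arrays. Again 4 of 5 rIPCl arrays lay above all controls (difference 1.07, SE 0.31, limma adjusted p = 0.0553). Both genes passed the adjusted threshold when only probes detected on all arrays of a group were tested. That filter uses the groups under test, so the pass adds no support. IL27 was detected on 3 control, 5 rIPCe and 5 rIPCl arrays and entered only through the preconditioned groups. With slide as a fixed block the differences were 0.10 for IL16 and 0.27 for IL27.

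**Figure D3:**
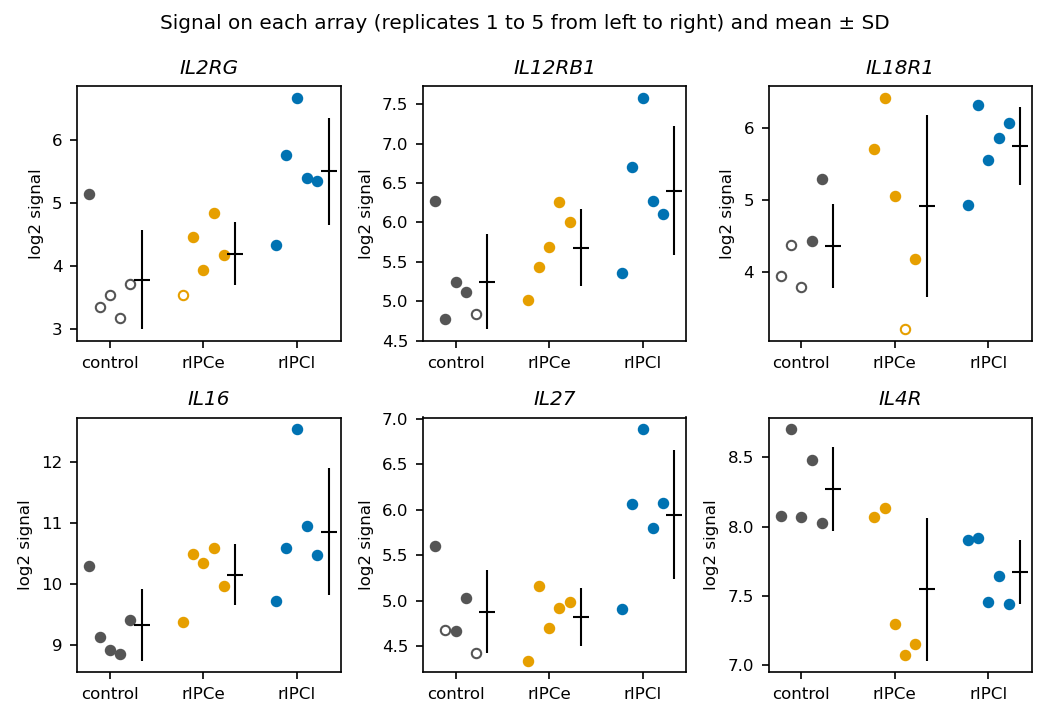
Log2 signal on each array for 6 members, in replicate order within a group, with filled points well above background and open points not; crosses with bars give the mean ± SD of 5 arrays. In IL2RG, IL16 and IL27, 4 of 5 rIPCl points lie above all control points, while in IL4R all 5 lie below.

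The same arrays recurred at the ends of these distributions. Of the 7 members past the less strict criteria, 6 were highest on rIPCl array 3 and 6 were lowest, within that group, on rIPCl array 1. IL2RG, IL12RB1, IL16 and IL7R were highest on control array 1, rIPCe array 4 and rIPCl array 3. The median log2 signal of 12 T and NK cell markers was highest on the same 3 arrays, with 8.17, 8.46 and 10.00. On rIPCl array 1, the lowest of its group, it was 7.10. Part of this pattern appeared in some other lists. The macrophage marker median was highest on control array 1 (11.91) and rIPCl array 3 (12.11), but in rIPCe on array 2 (11.17). The B cell marker median was highest on rIPCe array 4 (5.54) and rIPCl array 3 (6.82), but in the control group on array 2 (4.83). The mast cell median was highest on control array 1 and rIPCe array 4, but in rIPCl on array 4 (8.94). The endothelium median shared only control array 1 (11.95). The neutrophil median was highest on control array 1 (8.26) but lowest of its group on rIPCe array 4 (5.52) and rIPCl array 3 (6.13).

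Markers of leukocytes, fibroblasts and the proximal tubule moved with the group as well. All 12 measured T and NK cell markers of 17 listed had a higher mean in rIPCl than in the control group, 7 of them past the less strict criteria and 0 past the adjusted threshold (limma), with a median difference of 1.14. Their log2 summed signal ran from 11.61 to 12.45 on control, from 11.20 to 12.48 on rIPCe and from 11.97 to 13.85 on rIPCl arrays, and none of them was undetected on every array. The differences were 1.40 for CD3E, a chain of the T cell receptor complex, 1.35 for CD2 and 1.34 for CD8A. Of 7 macrophage markers 6 had a higher mean in rIPCl, while CD14 had a lower one (-0.12). Among them MRC1 (1.01, limma adjusted p = 0.0244) and LYZ, lysozyme (3.66, adjusted p = 0.0239), rose. The log2 summed signal of the macrophage list was 12.85 to 14.86 in the control group and 14.08 to 15.98 in rIPCl. Of 4 B cell markers CD79A (1.23, limma adjusted p = 0.0407) and BLNK (1.02, adjusted p = 0.0244) rose, and of 4 fibroblast markers, all with a higher mean in rIPCl (median difference 0.93), LUM rose (1.49, adjusted p = 0.0450). Of 8 proximal tubule markers FBP1 (-0.91, limma adjusted p = 0.0386) and SLC7A9 (-1.24, adjusted p = 0.0239) fell, while GATM had a higher mean (1.05, adjusted p = 0.104). In whole tissue, more cells of a type and more RNA per cell cannot be told apart, and the part of these markers in the interleukin results was not tested.

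IL4R went the other way. The chain binds IL4 and, with IL13RA1, IL13, and it is found on epithelial and myeloid as well as lymphoid cells. Its log2 signal was 8.08, 8.71, 8.07, 8.48 and 8.02 on the control arrays, 8.07, 8.14, 7.30, 7.07 and 7.16 on the rIPCe arrays, and 7.90, 7.92, 7.46, 7.65 and 7.44 on the rIPCl arrays. All 5 rIPCl arrays lay below all 5 control arrays, for an exact two-sided permutation p of 0.00794, the smallest this design can give, but the limma adjusted p for the difference of -0.60 (SE 0.23) was 0.113. Only IL4R and IL17A, 2 of 30 members, had groups that did not overlap, against 10.8% of the named genes, and IL17A was detected on no array. No slide held control and rIPCl arrays, and with slide as a fixed block the IL4R difference turned to 0.60.

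The other members detected on all arrays differed little between rIPCl and control. IL6ST, whose log2 signal was 10.42, 10.84, 10.39, 10.82 and 10.60 on the control arrays, 10.51, 10.58, 10.49, 10.27 and 10.31 on the rIPCe arrays and 10.63, 10.42, 10.40, 10.49 and 10.20 on the rIPCl arrays, differed by -0.19 (95% confidence interval -0.44 to 0.07). IL10RB had 8.87, 8.60, 8.25, 8.16 and 7.56 on the control arrays, 8.46, 7.86, 7.41, 8.06 and 7.87 on the rIPCe arrays and 7.78, 7.59, 8.64, 7.91 and 8.16 on the rIPCl arrays, a difference of -0.27 (-0.83 to 0.28). Both intervals leave out a change of 2-fold in either direction.

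IL15 had log2 signals of 8.86, 8.64, 8.58, 8.78 and 8.01 on the control arrays, 8.78, 8.22, 8.16, 8.50 and 8.23 on the rIPCe arrays and 8.23, 8.27, 9.07, 8.54 and 8.49 on the rIPCl arrays. The rIPCl difference was -0.06 (-0.47 to 0.36), an interval that leaves out a 2-fold change of this ligand of the common gamma chain. IL1B2 had 7.87, 7.67, 7.88, 7.84 and 7.55 on the control arrays, 7.43, 7.14, 7.30, 7.92 and 6.82 on the rIPCe arrays and 7.35, 7.87, 7.84, 7.68 and 7.58 on the rIPCl arrays, a difference of -0.10 (-0.47 to 0.28) in rIPCl. The probes of IL1B2 disagreed, since a dimmer probe that was well above background on 2 of 15 arrays was higher in rIPCl by 1.37 (limma adjusted p = 0.0332). The differences of IL5 (-0.25), IL29 (0.29), IL6R (0.19) and IL13RA1 (-0.23) did not pass either threshold. The IL6R probes disagreed too, and a dimmer one, detected on 9 arrays, gave -1.26 (limma adjusted p = 0.137).

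Of the 23 members not past the less strict criteria, 19 had a lower mean in rIPCl than in the control group. That share is partly set by the selection, since the 7 members left out were all higher. Over all 30 members 11 had a higher mean and 19 a lower one (36.7% higher), beside 48.5% higher over the named genes and 45.9% over all probes. The median difference between rIPCl and control was -0.22 over the 16 ligands and -0.07 over the 14 receptor chains, beside -0.02 over the named genes and -0.03 over all probes. Of the ligands 5 had a higher mean in rIPCl and 11 a lower one. Of the receptor chains 6 had a higher mean and 8 a lower one. These medians include members near the floor of the arrays. Of the 8 members detected on no array, 7 had a lower mean in rIPCl, among them IL23A (1.83 ± 0.34 against 2.62 ± 0.67 in the control group, limma adjusted p = 0.0814) and IL21 (1.78 ± 0.31 against 2.37 ± 0.50, adjusted p = 0.0959). Of the 6943 probes of the array that were detected nowhere, 67.3% were likewise lower in rIPCl. No fold is given for these genes.

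The remaining ligands were detected on part of the arrays. IL7, a survival factor for T cells that stromal cells make, was detected on 4 control, 5 rIPCe and 5 rIPCl arrays and averaged 5.25 ± 0.80, 4.83 ± 0.90 and 4.70 ± 0.26 (log2 signal, mean ± SD of 5 arrays) in these groups. Its rIPCl difference of -0.55 had an interval of -1.46 to 0.36, wide enough to hold a 2-fold decrease. IL12A and IL12B, the subunits of IL12, were detected on 1 and 2 control arrays, 0 and 1 rIPCe arrays, and 0 and 1 rIPCl arrays. IL2, the growth factor of activated T cells, was detected on rIPCl array 3 alone, at 3.66, the array on which its receptor chain IL2RA was detected as well. These values rest on too few arrays to compare the groups.

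**Figure D4:**
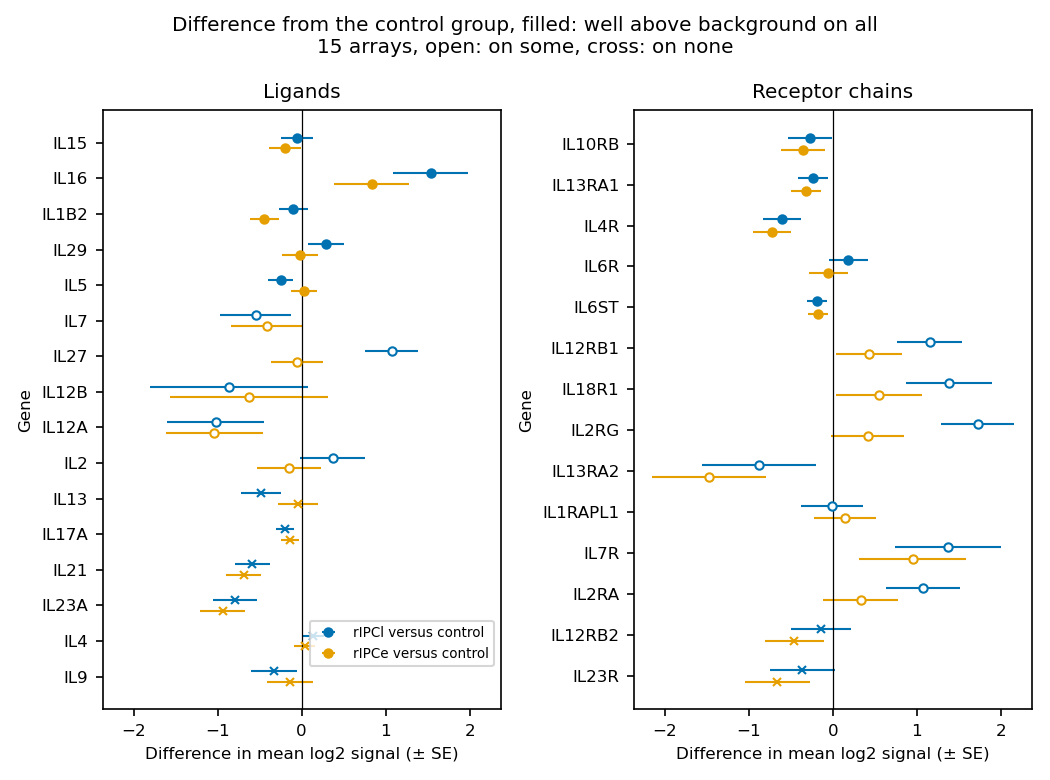
Difference in mean log2 signal from the control group (± SE) for each ligand (left) and receptor chain (right), in rIPCl (blue) and rIPCe (orange); filled points were well above background on all 15 arrays, open points on some and crosses on none, where a difference carries no fold change. IL2RG shows the highest rIPCl value, 1.72, and its rIPCe value is 0.42.

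In the early window no member was called against the control group (limma, adjusted p under 0.05), against 0.00229% of all probes and 0% of the named genes, and the methods' t-test with Benjamini-Hochberg adjustment called 0 as well. At an unadjusted p under 0.05, 0 members were higher and 5 were lower, IL4R, IL13RA2, IL1B2, IL23A and IL21, while 5.99% of the named genes were higher and 10.1% lower. The less strict criteria left 1 member, IL13RA2, lower in rIPCe, against 2.18% of all probes, 0.917% in the lower direction.

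IL13RA2, a receptor that binds IL13 and is regarded largely as a decoy, had log2 signals of 3.80, 6.72, 4.62, 4.81 and 4.24 on the control arrays, 1.57, 3.89, 4.96, 2.37 and 4.02 on the rIPCe arrays and 4.79, 2.69, 4.04, 4.83 and 3.41 on the rIPCl arrays. It was detected on 3, 2 and 4 arrays of these groups. The rIPCe difference was -1.47 (SE 0.68, limma adjusted p = 0.349), and -1.37 by the other IL13RA2 probe. The groups overlapped, and within the slide that held 3 rIPCe arrays and 1 control array the difference was -0.76.

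IL4R was lower in rIPCe by a difference of -0.73 (SE 0.23, limma adjusted p = 0.215), with rIPCe arrays 3, 4 and 5 below every control, and within the shared slide the difference was -0.19. IL1B2 differed by -0.44 (adjusted p = 0.285), and within that slide by -0.26. Here too the probes of IL1B2 disagreed, and the lower value is that of the brightest probe only. A dimmer probe, well above background on 2 arrays, was higher in rIPCe by 0.75 (limma adjusted p = 0.324). Another, well above background on no array, was higher by 0.15. IL23A and IL21 did not overlap between rIPCe and control, 2 of 30 members against 2.52% of the named genes, but both were well above background on no array. Their log2 means were 1.68 ± 0.12 against 2.62 ± 0.67 for IL23A and 1.68 ± 0.04 against 2.37 ± 0.50 for IL21. The median difference was -0.15 over the ligands and -0.12 over the receptor chains, beside -0.03 over the named genes.

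The 7 members that met the less strict criteria in rIPCl did not meet them in rIPCe. In 6 of the 7 the rIPCe mean lay between the control and rIPCl means. The rIPCe differences from the control group were 0.42 for IL2RG, 0.83 for IL16, 0.43 for IL12RB1 and 0.55 for IL18R1, with limma adjusted p of 0.411 for IL16 and higher for the other 3. The exception was IL27, at -0.06. Both comparisons share the control arrays. The T and NK cell markers had a median rIPCe difference of 0.36, with 11 of 12 higher and 0 at an unadjusted p under 0.05.

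The preconditioned groups were then compared with each other. No member and no probe was called between rIPCl and rIPCe (limma, 0% of all probes). The less strict criteria were met by 2 members, against 0.525% of all probes and 0.828% of the named genes. These were IL27, higher in rIPCl by 1.13 (SE 0.31, exact permutation p = 0.0317, limma adjusted p = 0.979), and IL2RG, higher by 1.31 (SE 0.43, exact permutation p = 0.0238, adjusted p = 0.979). In each, 4 of 5 rIPCl arrays lay above all rIPCe arrays, and rIPCl array 1 did not. This array shared a slide with rIPCe arrays 4 and 5, and within that slide the differences were -0.04 for IL27 and -0.18 for IL2RG. Of the 30 members 22 had a higher mean in rIPCl than in rIPCe, 10 of 16 ligands and 12 of 14 receptor chains. Over the named genes 53.6% had a higher mean, and over all probes 47.5%. The median difference was 0.10 for the ligands and 0.31 for the receptor chains, beside 0.02 over the named genes. These counts and medians include the 8 members detected on no array.

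Genes that carry the signal of these receptors were examined as lists. Of 11 Janus kinases and STAT factors listed, 10 were measured and all 10 were detected on every array. Against the control group 0 passed the adjusted threshold in rIPCl, and 5 were higher at an unadjusted p under 0.05. These were STAT4, which acts downstream of the IL12 receptor, at 0.83 (limma adjusted p = 0.0554), STAT5A, which acts downstream of the common gamma chain receptors, at 0.55, STAT2 at 0.45, TYK2 at 0.37 and JAK1 at 0.25. STAT5B, which acts downstream of the same receptors as STAT5A, differed by -0.009 (SE 0.19). No probe could be matched to the symbol JAK3 here, so it was not analysed, although the study's own pathway lists include JAK3 among its altered genes. STAT6, the factor used by IL4R, differed by 0.23 and STAT3, the factor used by IL6ST, by -0.06. Of 5 measured SOCS genes, which are feedback inhibitors of these pathways, 0 passed the adjusted threshold in rIPCl. Of these 4 had a lower mean, and SOCS6 (-0.35) was lower at an unadjusted p under 0.05.

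Of 8 measured genes of IL1 and Toll receptor signalling, CASP1 rose in rIPCl (1.90, SE 0.51, limma adjusted p = 0.0433). It encodes the protease that matures IL1B and IL18. At an unadjusted p under 0.05 alone, NFKBIA, the inhibitor of NF-kB, was higher (0.54) and MAP3K7, a kinase of the pathway, was lower (-0.37). The adaptor MYD88 (-0.08) and the NF-kB subunits NFKB1 (0.08) and RELA (-0.02) differed by less than their standard errors. LIF, CSF2 and CSF3, ligands of related receptor families without an IL symbol, did not pass either threshold. In rIPCe 0 genes of these 4 lists passed the adjusted threshold, and 0 passed at an unadjusted p under 0.05.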

How the data were processed

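Per the labels and file headers, kidney RNA of 15 pigs was hybridised to Agilent porcine 1-colour arrays and scanned, and the authors deposited the Agilent Feature Extraction (11.0.1.1) intensity and flag of each of 45220 spots. The deposited table of the series holds the mean processed intensity per probe and was an alternative. Here control spots were dropped, spots flagged as outliers were set missing, log2 intensities were quantile normalized as in the authors' methods, and spots of a probe were averaged (43603 probes, 6686 with a pig symbol). Groups were compared in limma (3.58.1, R 4.3.3) with 1 mean per group over all 15 arrays and Benjamini-Hochberg adjustment over all probes; the code was tested on simulated data. Calls used an adjusted p under 0.05. Full values were given for members past a threshold and for the 3 ligands and 3 receptor chains of highest mean signal. Exact permutation tests ran over 252 assignments. The members, marker and pathway lists were chosen with earlier results of these data known. Replicate numbers did not pair arrays (15 correlations, -0.27 to 0.07), which came from different pigs. The number of arrays limits the precision. No sequences or coordinates were used here.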

Additional observations from a re-analysis of the deposited data

Results flagged for a closer look

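Of 66 groups of 5 arrays, 3 for each of 22 members detected on any array, 7 held an array whose distance from the next nearest exceeded the Dixon limit for groups of 5 as a share of the group's range, where chance gives about 1 in 20. Control array 1 was high in IL2RG (log2 signal 5.14, next 3.71). Control array 3 was high in IL12A, a subunit of IL12 (5.60, next 2.19), and in IL2RA (3.63, next 1.45), where it was not well above background. Control array 4 was low in IL5 (5.96, next 6.40). Array 3 of rIPCe was low in IL29 (5.82, next 6.25). Array 3 of rIPCl was high in IL12B, the subunit that IL12 and IL23 share (7.18, next 2.77), and rIPCl array 1 was low in IL6R (4.90, next 5.84). IL12A was well above background on control array 3 and on no other array, and IL12B on 4 arrays of the 15.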

How the results depend on the processing

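The 1 member called in rIPCl against control became 7 with 75th percentile scaling, which moved the median of all probes to -0.11, and 3 with normexp correction of the median signal, an alternative chosen after seeing the data because the planned correction of the mean signal could not be run. It became 3 with the filter on dim probes, a filter that uses the groups under test since full detection in any group suffices. It became 2 (IL1B2 and IL2RG) with a gene's probes averaged, and 0 with the replicate block, slide as a fixed or random block, and the methods' t-test. With only the 10 arrays compared it was 1, but this was IL18R1, and IL2RG had an adjusted p of 0.0644. Leaving out 1 array gave 0 to 4: 0 without control array 2 or 4 or rIPCl array 2, 3, 4 or 5, 4 without control array 1 or rIPCl array 1, and 2 without control array 5 or rIPCe array 1. The 7 members past the less strict criteria became 1 with normexp, 4 and 3 with slide as a fixed and a random block, and 4 to 7 with 1 array left out. In rIPCe against control, slide as a fixed block called 3 members, IL23A, IL17A and IL23R, all detected on no array. The 1 member past the criteria there became 0 with normexp, the dim filter, the 10 arrays, the replicate block or the t-test, 2 with either slide block, and 0 to 3 with 1 array left out. Between rIPCl and rIPCe the 2 members became 0 with normexp, 1 and 0 with slide as a fixed and a random block, and 2 to 3 with 1 array left out.

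The median difference of the ligands in rIPCl was -0.53 with 75th percentile scaling, 0.010 with normexp, -0.055 with the dim filter and -0.026 with slide as a fixed block, and -0.25 to -0.17 with 1 array left out. In rIPCe it was -0.34 with 75th percentile scaling, 0.026 with slide as a fixed block, and -0.25 to -0.11 with 1 array left out. That of the receptor chains was 0.19 and 0.081 with slide as a fixed block in rIPCl and rIPCe, with ranges of -0.16 to 0.06 and -0.18 to -0.04 when 1 array was left out. With slide as a fixed block the sign turned for IL12RB1 (-0.24), IL4R (0.60) and IL7R (-0.053) in rIPCl against control, and for IL27 (-0.044) and IL2RG (-0.18) in rIPCl against rIPCe. With probes averaged it turned for IL1B2 in rIPCe (0.15). The cause was not tested. The replicate block, whose numbers did not pair the arrays, left IL2RG at an adjusted p of 0.0818. Of 435 alternative values of single genes, 398 kept their direction and side of the threshold. The 17 results behind them were chosen at an unadjusted p under 0.05, and only IL2RG in rIPCl against control was called. For the rest, keeping the side means staying uncalled. Leaving out an array outside the groups compared also cannot change a difference. The count is therefore no measure of stability. By the flag for signals positive and significant, 8 ligands and 12 receptor chains were detected on all arrays of a group, beside 7 and 9. Signal over background limits what can be said of the members detected on few arrays.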
